A study of Saccharomyces cerevisiae with 8 samples.

Results

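The 8 genes described here encode transcription factors that switch yeast between fermentation and the use of nonfermentable carbon: *HAP2*, *HAP3*, *HAP4*, *HAP5*, *CAT8*, *SIP4*, *RDS2* and *ADR1*. They were taken by gene name from a table of 6328 genes, and all 8 were detected in every library. Their transcripts were measured by RNA-seq in 8 libraries of *Saccharomyces cerevisiae* Y128, a xylose-fermenting strain obtained by engineering and laboratory evolution, to ask how loss or extra copies of the sugar-responsive transcription factor gene *AZF1* change expression during anaerobic growth on 2% xylose. There were 4 groups of 2 libraries, lettered A and B, and the labels name Y128 for all of them. The methods of the study instead name its derivative freed of the *KanMX* drug marker. The groups were the parent strain (WT) and this strain with *AZF1* replaced by a drug marker (*azf1Δ*). The other 2 groups were the parent with the MoBY 2.0 vector alone (MoBY control) or with *AZF1* on this vector (*AZF1* MoBY). All 4 groups share the xylose pathway genes and the null mutations in *ISU1*, *HOG1*, *GRE3* and *IRA2* that Y128 acquired. G418, at 200 mg/L, was present in the cultures of both plasmid strains and absent from those of WT and *azf1Δ*, so plasmid and drug cannot be told apart in MoBY control against WT. The extra *AZF1* in *AZF1* MoBY sits on a multicopy plasmid with its own flanking sequence.

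The HAP complex activates genes of the respiratory chain and the tricarboxylic acid (TCA) cycle. Hap2, Hap3 and Hap5 together bind CCAAT sequences, and Hap4 supplies the activation domain and is the subunit whose gene is controlled by the carbon source. Cat8 and Sip4 are zinc cluster proteins that bind the carbon source response element of gluconeogenic genes, downstream of the Snf1 kinase, and Cat8 also activates *SIP4*. Rds2 acts on gluconeogenic genes too, and Adr1, a zinc finger protein also under Snf1 control, activates genes for ethanol, glycerol and fatty acid use.

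Levels are given as RPKM, the reads of a gene scaled by its length and by the mapped reads of the library. Values are relative to all mapped reads of a library, so a lower share and less RNA per cell cannot be told apart. The 2 libraries of each group were collected on different days, and p-values measure the spread between these duplicates only. Depth, inferred from the step that 1 read makes in the values of low genes, was 6180000 to 7140000 reads per library, and duplicates correlated at 0.985 to 0.991 across 6105 genes, which are not independent replicates. *AZF1* was at 13.2 and 11.6 RPKM in WT, at 0.0501 and 0.12 RPKM in *azf1Δ*, at 13.3 and 14.3 RPKM in MoBY control and at 74.0 and 73.5 RPKM in *AZF1* MoBY. The libraries labelled *azf1Δ* thus held no more than 3 reads of the gene, and those labelled *AZF1* MoBY held the most.

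The regulators were present at very different levels in WT. *HAP4* was the most abundant at 50.1 ± 3.19 RPKM (SD, n = 2), followed by *ADR1* at 25.6 ± 0.376 RPKM and *HAP3* at 16.9 ± 0.829 RPKM. *RDS2*, *HAP2*, *CAT8* and *HAP5* lay between 8.02 and 11.6 RPKM, and *SIP4* was lowest at 2.91 ± 0.356 RPKM. The reads behind these values, per library, ranged from 19.1 to 53.2 for the short genes *HAP2*, *HAP3* and *HAP5*, from 41.1 to 668 for *SIP4*, from 76.9 to 111 for *RDS2*, and from 184 to 1060 for *CAT8*, *HAP4* and *ADR1*. Counting error was thus largest, relative to the level, in *HAP2*, *HAP3* and *HAP5* and in *SIP4* where it was low.

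**Figure D1:**
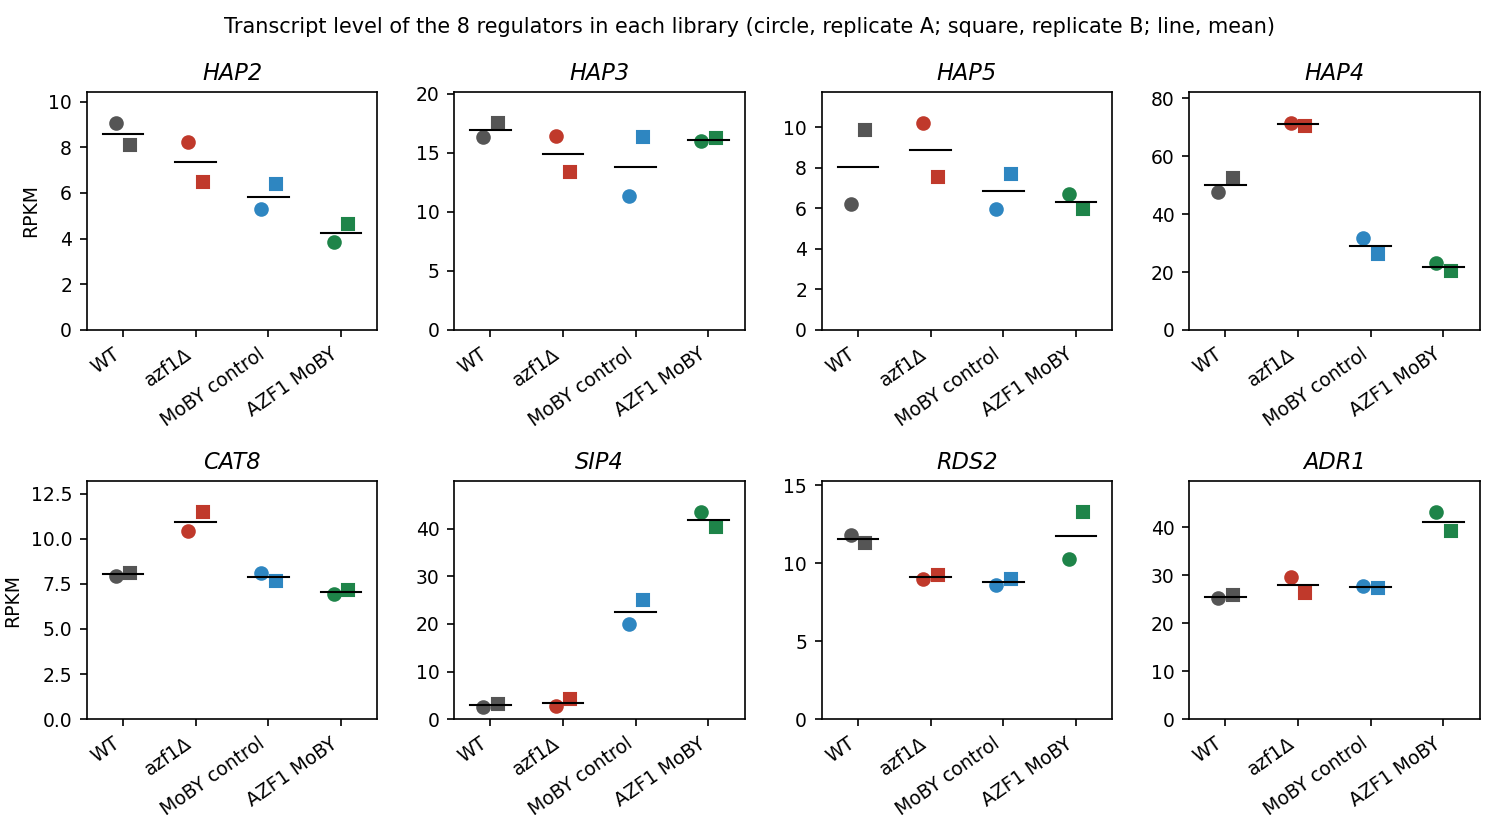
Transcript level of each regulator in every library, in RPKM on linear axes that start at 0, with circles for replicate A, squares for replicate B and a line at the mean of each group. *SIP4* rises from 2.66 to 4.17 RPKM without plasmid to 20.0 to 43.4 RPKM with it, *HAP4* is highest in *azf1Δ*, and *ADR1* stands apart in *AZF1* MoBY.

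*HAP4* was the regulator called on loss of *AZF1*. It stood at 47.8 and 52.4 RPKM in WT and at 71.5 and 70.5 RPKM in *azf1Δ*, so that both mutant libraries were above both WT libraries, and the ratio of the means was 1.42. The log2 fold change was 0.50 ± 0.08 (SE, limma, adjusted p = 0.0462). No other member passed the test: 1 of 8 was called, where 1.73% of the 5944 genes tested were called, 0.942% higher and 0.791% lower. The call of *HAP4* was close to the threshold and was lost when libraries were rescaled to a common median ratio (limma, adjusted p = 0.0701). It was also lost without the filter on low values, without the variance trend, when all 8 libraries shared 1 fit and with any of the 4 libraries left out, where the log2 fold change was 0.43 to 0.56 (limma, adjusted p = 0.296 to 0.541).

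The genes for the DNA-binding subunits of the complex did not separate WT from *azf1Δ*. *HAP2* was at 9.06 and 8.11 RPKM in WT and at 8.23 and 6.50 RPKM in *azf1Δ*. *HAP3* was at 16.3 and 17.5 RPKM in WT and at 16.5 and 13.4 RPKM in *azf1Δ*, and *HAP5* at 6.19 and 9.85 RPKM in WT and at 10.2 and 7.52 RPKM in *azf1Δ*. All 3 genes overlapped between the groups, with log2 fold changes of -0.20 (95% interval -0.58 to 0.17), -0.18 (-0.49 to 0.13) and 0.14 (-0.42 to 0.71). The upper bounds for *HAP2* and *HAP3* lay below the 0.50 of *HAP4*, that for *HAP5* did not, and differences between the genes were not tested.

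Among the gluconeogenic regulators, *CAT8* was at 7.95 and 8.11 RPKM in WT and at 10.4 and 11.5 RPKM in *azf1Δ*. The mutant libraries were both higher, by a log2 fold change of 0.40 ± 0.13, but the gene was not called (limma, adjusted p = 0.187). *RDS2* was at 11.8 and 11.3 RPKM in WT and at 9 and 9.25 RPKM in *azf1Δ*, again without overlap and without a call (log2 fold change -0.31 ± 0.12, limma, adjusted p = 0.257). *SIP4*, at 2.66 and 3.16 RPKM in WT and 2.81 and 4.17 RPKM in *azf1Δ*, overlapped between the groups. *ADR1* did not overlap, at 25.3 and 25.8 RPKM against 29.7 and 26.4 RPKM, but its log2 fold change was only 0.13 ± 0.10. Over the 8 members the median log2 fold change was 0.14, against 0.04 over all genes. The 4 of 8 members that did not overlap between the groups were no larger a share than the 48.3% of all genes tested.

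*SIP4* and *ADR1* were the members called with extra copies of *AZF1*, both higher. *SIP4* was at 20.0 and 25.1 RPKM in MoBY control and at 43.4 and 40.2 RPKM in *AZF1* MoBY, a ratio of means of 1.85, with a log2 fold change of 0.87 ± 0.14 (limma, adjusted p = 0.0139). *ADR1* was at 27.7 and 27.3 RPKM in MoBY control and at 43.1 and 39.1 RPKM in *AZF1* MoBY, a ratio of 1.5 and a log2 fold change of 0.56 ± 0.11 (limma, adjusted p = 0.0227). For both genes each *AZF1* MoBY library exceeded each control library. These were 2 of 8 members called, in a comparison that called 16.4% of the 6029 genes tested, 10.2% higher and 6.17% lower. With 8 members, 2 calls are not far from these shares. Both calls were lost without either *AZF1* MoBY library, where no gene of the table was called, and without MoBY control A, and that of *ADR1* also without MoBY control B and without the variance trend. The log2 fold changes were 0.71 to 1.03 for *SIP4* and 0.49 to 0.63 for *ADR1* over the 4 libraries left out in turn.

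*HAP4* was lower in both *AZF1* MoBY libraries, at 23.1 and 20.3 RPKM, than in both control libraries, at 31.8 and 26.2 RPKM, but it was not called (log2 fold change -0.40 ± 0.14, limma, adjusted p = 0.125). It was called in the fit of all 8 libraries (limma, adjusted p = 0.0409), which estimates the spread from more samples. *HAP2* was at 5.28 and 6.41 RPKM in MoBY control and at 3.86 and 4.63 RPKM in *AZF1* MoBY, and its log2 fold change of -0.38 ± 0.19 was not called (limma, adjusted p = 0.239). *HAP3* was at 11.3 and 16.3 RPKM against 16 and 16.2 RPKM, and *HAP5* at 5.98 and 7.67 RPKM against 6.68 and 5.98 RPKM. The control libraries of *HAP3* lay farther apart than any other pair of that gene, and neither gene was called.

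*CAT8*, the activator of *SIP4*, was at 8.11 and 7.67 RPKM in MoBY control and at 6.92 and 7.16 RPKM in *AZF1* MoBY (log2 fold change -0.15, 95% interval -0.52 to 0.23). *RDS2* was at 8.63 and 9 RPKM in MoBY control and at 10.3 and 13.3 RPKM in *AZF1* MoBY, without overlap and without a call (log2 fold change 0.37 ± 0.17, limma, adjusted p = 0.210). In all, 6 of 8 members did not overlap between these groups, 3 of them higher and 3 lower in *AZF1* MoBY, where 59% of all genes tested did not overlap. The median log2 fold change of the members was 0.07, against 0.00 over all genes.

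The largest change of any member was that of *SIP4* between MoBY control and WT. From 2.66 and 3.16 RPKM in WT it reached 20.0 and 25.1 RPKM in MoBY control, a ratio of means of 7.75 and a log2 fold change of 2.58 ± 0.18 (limma, adjusted p = 0.000298). In the same comparison *HAP4* fell from 47.8 and 52.4 RPKM to 31.8 and 26.2 RPKM, to 0.579 of the WT mean, with a log2 fold change of -0.77 ± 0.14 (limma, adjusted p = 0.00977). The call of *SIP4* held in every alternative tried, including each library left out. The call of *HAP4* was lost without either WT library or without MoBY control B, at log2 fold changes between -0.84 and -0.64.

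These 2 calls among 8 members, 1 in each direction, compare with 23.7% of the 5991 genes tested in MoBY control against WT, 13.2% higher and 10.6% lower. *HAP2*, at 9.06 and 8.11 RPKM in WT and 5.28 and 6.41 RPKM in MoBY control, was lower in both plasmid libraries, with a log2 fold change of -0.49 ± 0.18 that was not called (limma, adjusted p = 0.0977). *RDS2* was likewise lower in both plasmid libraries and not called (log2 fold change -0.35 ± 0.14, limma, adjusted p = 0.132). *ADR1* and *CAT8* were not called, with log2 fold changes of 0.10 (95% interval -0.17 to 0.38) and -0.02 (-0.39 to 0.35). A total of 5 of 8 members did not overlap between the groups, close to the 63% of all genes tested, and the median of the 8 was -0.24, against -0.02 over all genes.

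**Figure D2:**
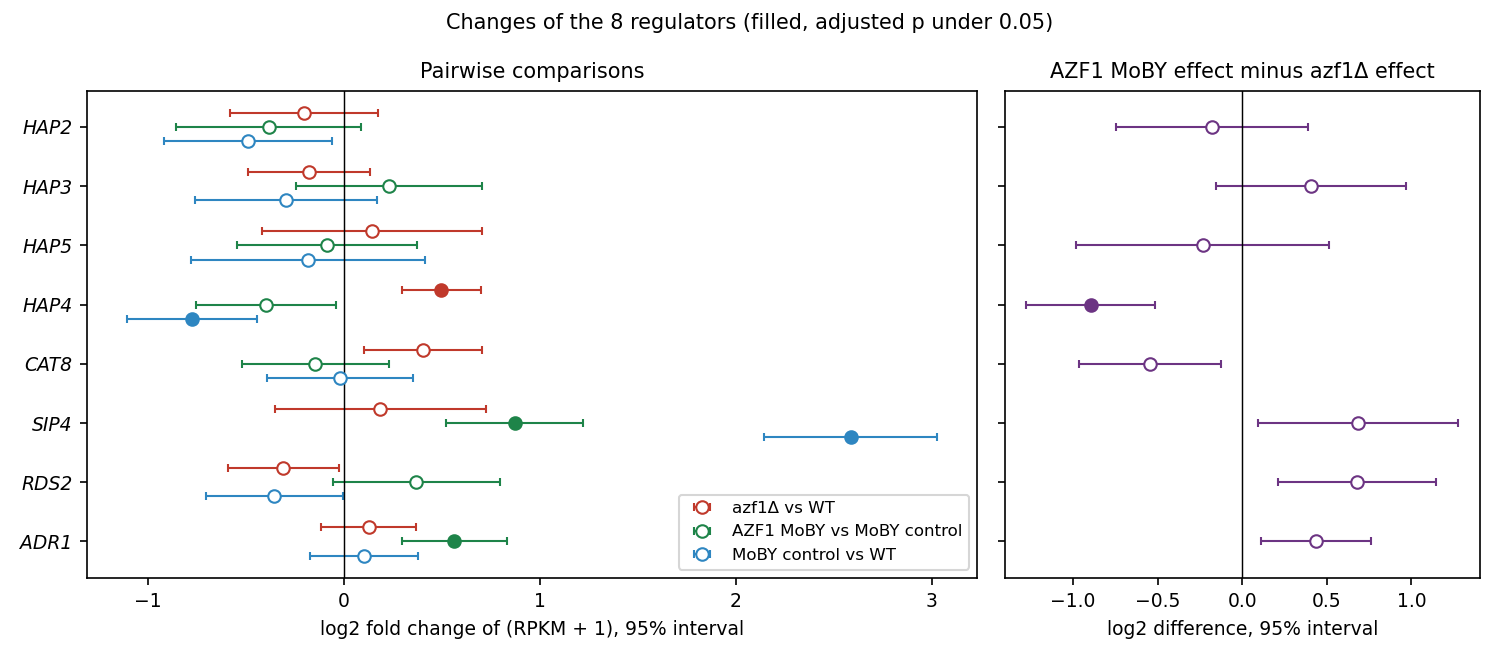
Log2 fold change of (RPKM + 1) with its 95% interval for each regulator in the 3 pairwise comparisons (left) and the *AZF1* MoBY effect minus the *azf1Δ* effect (right), with filled symbols for an adjusted p under 0.05. *SIP4* reaches 2.58 in MoBY control against WT and 0.87 in *AZF1* MoBY against control, and *HAP4* is the filled symbol on the right, at -0.90.

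Because the gain and loss comparisons share no library, their effects could be subtracted and the difference tested. Gain was measured only with plasmid and G418 and loss only without them. A difference between gain and loss thus cannot be told apart from an effect that depends on plasmid or drug. *HAP4* was the member whose effects differed by this test: its change on extra *AZF1* was lower than its change on loss of *AZF1* by a log2 difference of -0.90 ± 0.17 (limma, adjusted p = 0.0105). It was 1 of 8 members called, no larger a share than the 14.7% called among the 6105 genes tested. The differences of *RDS2*, at 0.68 ± 0.20 (limma, adjusted p = 0.0591), and *ADR1*, at 0.44 ± 0.14 (limma, adjusted p = 0.0760), were not called, but both were called after rescaling (limma, adjusted p = 0.0404 and 0.0391). *CAT8*, with a difference of -0.55 ± 0.18 (limma, adjusted p = 0.083), and *SIP4*, with 0.68 ± 0.26 (limma, adjusted p = 0.115), were not called, although *CAT8* was without the variance trend (limma, adjusted p = 0.0492). *HAP2*, *HAP3* and *HAP5* had differences of -0.18, 0.41 and -0.23, each with an interval that spans 0.

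Ordered by group, *HAP4* descended from *azf1Δ* through WT and MoBY control to *AZF1* MoBY, with means of 71.0, 50.1, 29.0 and 21.7 RPKM and no overlap between neighbouring groups. This is not an order by *AZF1* level alone. WT and MoBY control differ in plasmid and G418, while mean *AZF1* was 12.4 and 13.8 RPKM in them. *HAP2* ran from WT at 8.59 RPKM through *azf1Δ* at 7.36 RPKM and MoBY control at 5.84 RPKM to *AZF1* MoBY at 4.25 RPKM, and its libraries overlapped between WT and *azf1Δ*. *SIP4* ran nearly the other way, with *AZF1* MoBY at 41.8 ± 2.25 RPKM, MoBY control at 22.5 ± 3.63 RPKM, and *azf1Δ* and WT, at 3.49 and 2.91 RPKM, overlapping. *HAP4* exceeded *SIP4* 17.2-fold in WT and was 0.518 of it in *AZF1* MoBY, on the scale per gene length.

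The order of *ADR1* was *AZF1* MoBY at 41.1 ± 2.82 RPKM, then *azf1Δ* at 28 RPKM and MoBY control at 27.5 RPKM, which overlapped, and WT at 25.6 RPKM. *CAT8* was highest in *azf1Δ* at 10.9 ± 0.750 RPKM, followed by WT at 8.03 RPKM and MoBY control at 7.89 RPKM, which overlapped, and *AZF1* MoBY at 7.04 RPKM. *RDS2* was at 11.8 and 11.6 RPKM in *AZF1* MoBY and WT, which overlapped, and at 9.13 and 8.82 RPKM in *azf1Δ* and MoBY control, whose ranges met at 9 RPKM. *HAP3*, with group means of 13.8 to 16.9 RPKM, and *HAP5*, with 6.33 to 8.86 RPKM, had no order beyond the spread of their libraries.

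The balance of *HAP4* to the other HAP genes followed from these levels. Within a library, *HAP4* stood above the mean log2 RPKM of *HAP2*, *HAP3* and *HAP5* by 2.30 and 2.23 in WT, 2.68 and 3.02 in *azf1Δ*, 2.16 and 1.49 in MoBY control, and 1.63 and 1.40 in *AZF1* MoBY. As a ratio this was 4.68 to 4.93 in WT, 6.42 to 8.13 in *azf1Δ*, 2.82 to 4.48 in MoBY control and 2.65 to 3.1 in *AZF1* MoBY. Both *azf1Δ* libraries were above both WT libraries, while the 2 plasmid groups overlapped, with MoBY control A well above the other 3 plasmid libraries.

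**Figure D3:**
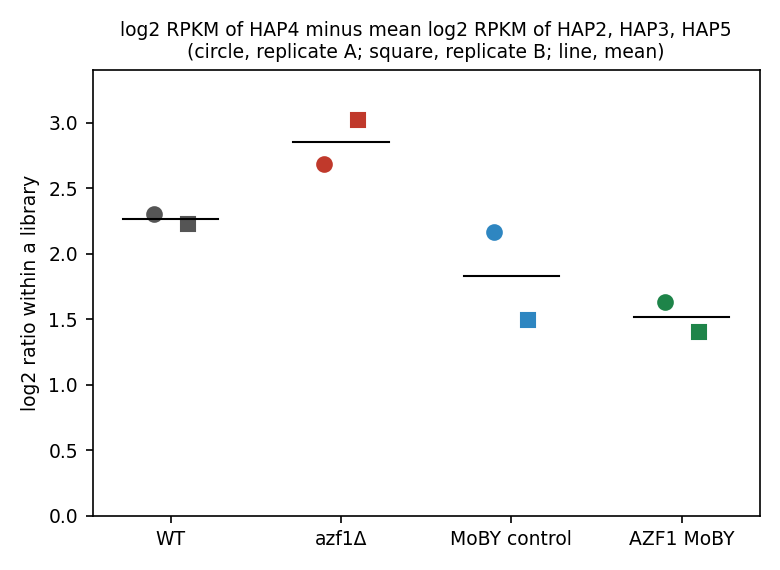
Log2 RPKM of *HAP4* minus the mean log2 RPKM of *HAP2*, *HAP3* and *HAP5* within each library, with circles for replicate A, squares for replicate B and a line at the group mean. The *azf1Δ* libraries lie at 2.68 and 3.02, above WT at 2.30 and 2.23, and the plasmid libraries range from 1.40 to 2.16.

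The genes that these factors are known to activate were then read from the same fits. Of 33 genes of the respiratory chain and TCA cycle, 11 rose and none fell in *azf1Δ* (limma, with 26 higher and 0 lower at an unadjusted p under 0.05), and 32 of the 33 had a positive log2 fold change. Over all genes tested, 0.942% were called higher and 0.791% lower. The median of the 33 was 0.37, against 0.04 over all genes and 0.50 for *HAP4*. Among the genes called, the largest rises were those of the cytochrome c oxidase subunit genes *COX12* (0.89 ± 0.10, limma, adjusted p = 0.0212), *COX7* (0.84 ± 0.14, limma, adjusted p = 0.0435) and *COX8* (0.81 ± 0.09, limma, adjusted p = 0.0254), and of *QCR10*, which encodes a subunit of the cytochrome bc1 complex (0.65 ± 0.08, limma, adjusted p = 0.0254). After rescaling, 4 of the 33 were called and the median was 0.32. With any of the 4 libraries left out no gene of the table was called, and the median was 0.37 to 0.38. The succinate dehydrogenase gene *SDH2*, for example, was at 278 and 286 RPKM in WT and at 385 and 407 RPKM in *azf1Δ*.

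With extra *AZF1*, 3 of the 33 respiratory genes fell and none rose (limma, with 10 lower and 0 higher at an unadjusted p under 0.05), a share near the 6.17% of all genes called lower: *LPD1*, for a subunit shared by the 2-oxoacid dehydrogenases (-0.57 ± 0.11, adjusted p = 0.0211), *LSC1*, for a succinyl-CoA ligase subunit (-0.46 ± 0.11, adjusted p = 0.0452) and *MDH1*, for mitochondrial malate dehydrogenase (-0.40 ± 0.10, adjusted p = 0.0448). The median of the 33 was -0.20, against 0.00 over all genes, and moved from -0.38 without *AZF1* MoBY A to -0.07 without *AZF1* MoBY B. After rescaling, 1 of the 33 was called. In MoBY control against WT, 22 of the 33 fell and none rose (limma, with 25 lower and 1 higher at an unadjusted p under 0.05), with a median of -0.72 against -0.02 over all genes. Of all genes tested there, 10.6% were called lower and 13.2% higher. *COX13* (-1.54 ± 0.11, limma, adjusted p = 0.000313) and *COX4* (-1.24 ± 0.11, limma, adjusted p = 0.000721), both for cytochrome c oxidase subunits, fell furthest, and *SDH2* was at 119 and 136 RPKM in MoBY control. The gain and loss effects differed for 12 of the 33, where they differed for 14.7% of all genes. All 12 were more negative on gain, and the median difference of the 33 was -0.61.

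*HAP4* and this gene class therefore had the same sign of change in each of the 3 comparisons, although *HAP4* was not called with extra *AZF1*. These signs were not particular to *HAP4*. *CAT8* and *HAP5*, not called in any of the 3, had them too. So did the median of the genes for ethanol, glycerol and fatty acid use, described below. MoBY control against WT shares its libraries with the other 2 comparisons, so the 3 are not independent. How much of the class's change goes through *HAP4* was not tested.

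No gene of the class activated by Cat8 and Sip4 was called where *SIP4* rose. Of 9 genes measured for gluconeogenesis, the glyoxylate cycle and uptake of small carbon compounds, none was called in MoBY control against WT, where *SIP4* rose most (limma, with 1 higher and 0 lower at an unadjusted p under 0.05), and the median was 0.05. None was called with extra *AZF1* either (limma, with 1 higher and 0 lower at an unadjusted p under 0.05), with a median of 0.22 against 0.00 over all genes, and after rescaling 1 of the 9 was called, higher. Over all genes tested, 13.2% were called higher and 10.6% lower in MoBY control against WT. With extra *AZF1* 10.2% were called higher and 6.17% lower. With 9 genes, a count of 0 is not far from these shares. In *azf1Δ* 0.942% of all genes were called higher. *PCK1*, which encodes the gluconeogenic enzyme phosphoenolpyruvate carboxykinase, was the 1 gene of the 9 called in *azf1Δ*: it rose from 9.45 and 10.4 RPKM to 27.1 and 25.5 RPKM, a log2 fold change of 1.32 ± 0.11 (limma, adjusted p = 0.0125). In that comparison *SIP4* overlapped between the groups and *CAT8* was higher but not called. Most of the class was scarce: *FBP1*, for fructose-1,6-bisphosphatase, lay between 1.01 and 2.62 RPKM in the 8 libraries and *MLS1*, for malate synthase, between 0.678 and 2.24 RPKM, whereas *ACS1*, for acetyl-CoA synthetase, reached 102 RPKM.

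No gene of the class activated by Adr1 was called higher where *ADR1* rose. Of 13 genes for ethanol, glycerol and fatty acid use that were tested with extra *AZF1*, none rose and 1 fell (limma, with 1 higher and 1 lower at an unadjusted p under 0.05), and the median was -0.05. For 13 genes these counts are not far from the shares over all genes, 10.2% called higher and 6.17% lower. *ALD4*, which encodes the mitochondrial aldehyde dehydrogenase, was the one that fell, from 137 and 113 RPKM to 79.9 and 75.6 RPKM (-0.67 ± 0.12, limma, adjusted p = 0.0176). *ADH2*, the alcohol dehydrogenase gene for which Adr1 is named, was at 10.4 and 13.1 RPKM in MoBY control and at 12.2 and 9.71 RPKM in *AZF1* MoBY. These groups overlapped, with a log2 fold change of -0.09 ± 0.18. In MoBY control against WT, where *ADR1* was not called, 5 of 13 fell and none rose (limma, with 7 lower and 0 higher at an unadjusted p under 0.05), among them *POX1*, for fatty acyl-CoA oxidase (-1.69 ± 0.18, limma, adjusted p = 0.00151), and *GUT2*, for mitochondrial glycerol 3-phosphate dehydrogenase (-1.42 ± 0.14, limma, adjusted p = 0.0011). Over all genes tested in that comparison, 10.6% were called lower and 13.2% higher. In *azf1Δ* none of 14 was called, where 1.73% of all genes were (limma, with 3 higher and 0 lower at an unadjusted p under 0.05), with a median of 0.19 against 0.04 over all genes.

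**Figure D4:**
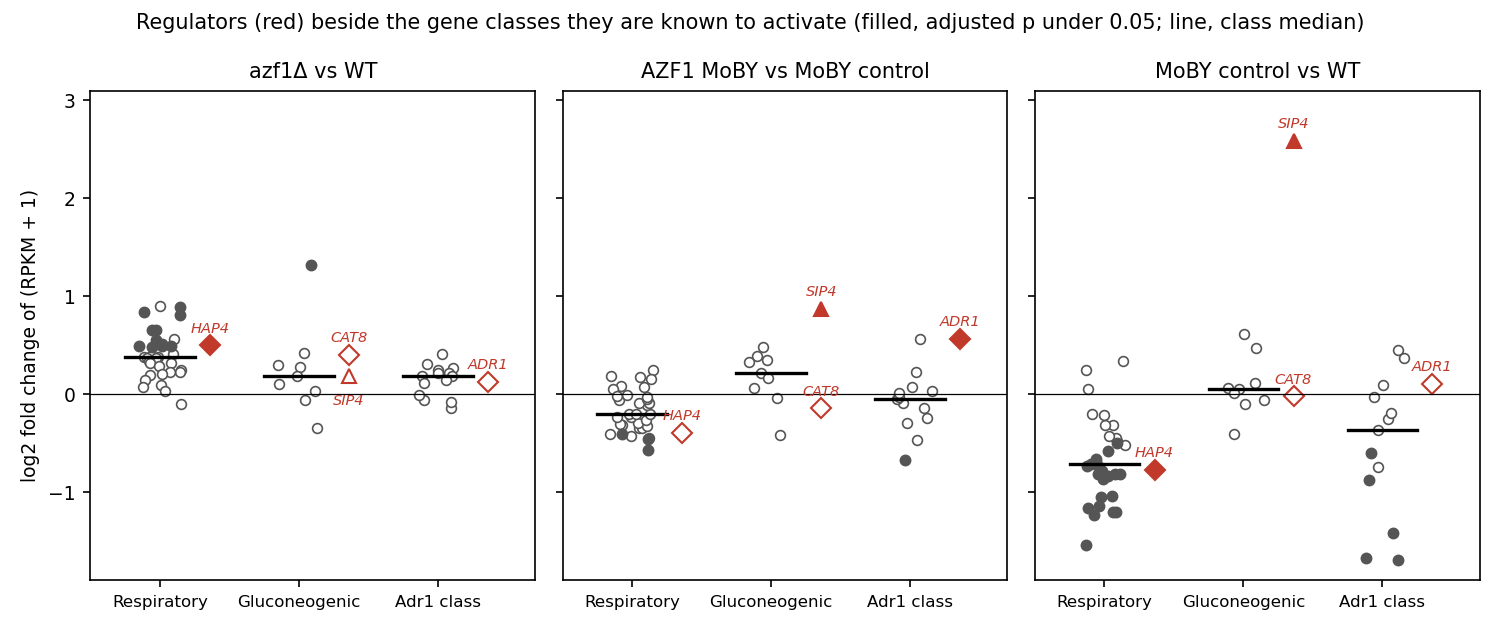
Log2 fold change of (RPKM + 1) of the genes of 3 classes (grey circles, with a line at the class median) and of the regulators known to activate them (red), in the 3 pairwise comparisons, with filled symbols for an adjusted p under 0.05. *HAP4* lies on the same side of 0 as the median of its class in each panel, whereas *SIP4* at 2.58 and *ADR1* at 0.56 lie well above the medians of theirs.

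The genes that act upstream of these regulators were also examined. Of 18 genes for the Snf1 kinase, its regulators and the Mig repressors, which turn off many of these regulators and their targets in glucose, none was called in *azf1Δ* (limma, with 2 higher and 2 lower at an unadjusted p under 0.05). With extra *AZF1*, 1 rose and 4 fell, where 10.2% of all genes were called higher and 6.17% lower. The riser was *MIG3*, for a repressor related to Mig1, which went from 17.5 and 16.8 RPKM to 38.9 and 38.6 RPKM (1.13 ± 0.11, limma, adjusted p = 0.00353), and the genes that fell were *MIG1* (-0.62 ± 0.12, limma, adjusted p = 0.0255), the corepressor gene *TUP1* and the 14-3-3 genes *BMH1* and *BMH2*. After rescaling, 2 rose and 3 fell. In *azf1Δ*, *MIG3* was not called but was lower in both libraries, at 2.6 and 1.5 RPKM, against 8.9 and 5.3 RPKM in WT. Its log2 fold change there was -1.41 ± 0.29. In MoBY control against WT, *MIG3* (1.20 ± 0.23, limma, adjusted p = 0.0136) and *MIG2* (1.05, limma, adjusted p = 0.00391) rose and 4 genes fell, among them the hexokinase gene *HXK2*, the kinase activator gene *SNF4* and *TUP1*. The 2 of 18 that rose there were near the 13.2% of all genes called higher, and 10.6% of all genes were called lower. In *azf1Δ* 1.73% of all genes were called. *SNF1* itself was at 28.1 to 35.5 RPKM in all 8 libraries and was not called in any pairwise comparison.

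Among 11 other regulators of respiratory, nonfermentable carbon and hypoxic genes, *NRG1* was the only one called in a pairwise comparison. It encodes a repressor of glucose-repressed genes and was at 12.7 and 10.9 RPKM in WT, 9.65 and 9.06 RPKM in *azf1Δ*, 208 and 246 RPKM in MoBY control, and 564 and 523 RPKM in *AZF1* MoBY. Its log2 fold change was 4.15 ± 0.14 in MoBY control against WT (limma, adjusted p = 2.63e-05) and 1.26 ± 0.11 with extra *AZF1* (limma, adjusted p = 0.00301). It was therefore high in the same libraries as *SIP4*. In *azf1Δ* none of the 11 was called (limma, with 3 higher and 0 lower at an unadjusted p under 0.05). Over all genes, 13.2% were called higher in MoBY control against WT and 10.2% with extra *AZF1*, so 1 of 11 is near these shares. In *azf1Δ* 1.73% of all genes were called.

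For each regulator, the genes with the most similar profile over the 8 libraries were found among 5645 genes by the root mean square difference of centred log2(RPKM + 1) values, where 0 is an identical profile. All points share the library and its depth, and the measure is a description. For *HAP4* these were *RPM2*, for a subunit of mitochondrial RNase P, at 0.0671, and the citrate synthase gene *CIT1* at 0.0751, where the median gene was at 0.646. *RPM2* was at 28.1 and 27.7 RPKM in WT, 36.5 and 36.5 RPKM in *azf1Δ*, 15.6 and 13.7 RPKM in MoBY control and 12.2 and 10.1 RPKM in *AZF1* MoBY. The same order of groups as in *HAP4* follows from the choice of *RPM2* by its profile.

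For *SIP4* the most similar genes were *HLJ1*, for a co-chaperone of the endoplasmic reticulum membrane, at 0.125, and *YBR287W* at 0.140, where the median gene was at 1.55. *HLJ1* was at 33.4 and 35.8 RPKM in WT, 40.5 and 41.1 RPKM in *azf1Δ*, 197 and 254 RPKM in MoBY control and 431 and 434 RPKM in *AZF1* MoBY. For *ADR1* they were *COX15*, for an enzyme of heme a synthesis, at 0.0568, and *SPE2*, for an enzyme of spermidine synthesis, at 0.080. *COX15* was at 42.5 to 48.2 RPKM in the 6 libraries without extra *AZF1* and at 68.1 and 64.9 RPKM in *AZF1* MoBY. For *CAT8* they were *YPF1* at 0.0558 and *PGS1* at 0.0624, and for *RDS2* *AAD14* at 0.0953 and *TCO89* at 0.110. The profiles of *HAP2*, *HAP3* and *HAP5* were nearest to *YCR090C* and *CHL4*, *TRS23* and *SPN1*, and *CWC2* and *ARF3*, at 0.0689 to 0.109.

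Adjacent genes were examined because a read that lies in 2 overlapping genes cannot be assigned to either with certainty. In the RefSeq annotation of the S288C strain none of the 8 regulators overlaps another gene. The neighbours of *SIP4* did not rise with it: *ARG3*, for an arginine biosynthetic enzyme, fell in MoBY control against WT (-0.81, limma, adjusted p = 0.00243) and with extra *AZF1* (-0.53, limma, adjusted p = 0.0230), and *DPB11*, a replication gene, had log2 fold changes of 0.01 and -0.33 that were not called. Next to *HAP2*, *MTO1*, for a mitochondrial tRNA modification enzyme, fell in MoBY control against WT (-0.53, limma, adjusted p = 0.0276). No other adjacent gene that was tested was called in a pairwise comparison, including *KTI12* and *SLD2* beside *HAP4* and *RAD9* beside *ADR1*.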

How the data were processed

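Groups came from the labels, which name Y128, whereas the methods of the study name a marker-free derivative, and each group had 2 libraries. Per the methods, the authors trimmed single-end reads from rRNA-depleted, strand-specific libraries (Trimmomatic), aligned them to the Y22-3 genome (Bowtie 2) and counted reads per gene (HTSeq). Whether HTSeq counted by strand is not given in the sources used here. The deposited values are log2 RPKM to 2 decimals, computed by the authors, and the read counts were not used.

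After conversion to RPKM and addition of a pseudocount of 1, log2 values were tested with limma 3.58.1 under R 4.3.3 with a variance trend, two-sided, over all genes that reached 1 RPKM in 2 or more of the libraries compared. A gene was called at a Benjamini-Hochberg adjusted p under 0.05. This scale understates changes of low genes. The procedure was tested on simulated data.

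Depth was inferred from RPKM steps: 86.1% to 90.7% of low values lay within 0.15 reads of a whole number, against 30% by chance. Such depths and the floor of 3 reads cover counting error only.

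The 8 members and 5 gene lists were chosen with earlier results of these data known. Named genes are the members, up to 4 called genes of a list per comparison with the largest change or needed beside a member, the 2 genes with the nearest profile, and adjacent genes. *JEN1* was not matched in the table, and *CTA1* failed the filter in the pairwise plasmid comparisons. Lengths and gene order are from the RefSeq annotation of S288C (R64). The Y22-3 genome was not used here, so promoters and motifs were not analysed.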

Additional observations from a re-analysis of the deposited data

Results flagged for a closer look

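*HAP4* had a change on extra *AZF1* (-0.40) that differed from its change on loss of *AZF1* (0.50) by -0.90 on the log2 scale in a direct test of the difference (limma, adjusted p = 0.0105). *HAP4* was lower in 2 of 2 *AZF1* MoBY libraries than in both controls, and higher in 2 of 2 *azf1Δ* libraries than in both WT libraries. The first pair of groups had plasmid and G418 and the second had neither. The test of the difference cannot separate this from gain and loss. The change on extra *AZF1* was not called by itself (limma, adjusted p = 0.125). Of the 8 members, 12.5% were called in the test of the difference, against 14.7% of all genes tested.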

How the results depend on the processing

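With 2 libraries per group, calls near the threshold depended on settings. In *azf1Δ* against WT the 103 genes called (56 higher, 47 lower) became 5 without the filter, 5 without the variance trend and 61 after rescaling (24 higher, 37 lower). With a replicate block for the letters A and B, which are not stated to mark a shared day, 0 were called (limma, 803 at an unadjusted p under 0.05), and leaving out 1 library gave 0 to 0 calls (540 to 813 unadjusted). *HAP4* then had an adjusted p of 0.082 without the filter, 0.147 without the trend, 0.0881 with all 8 libraries in 1 fit and 0.218 with the replicate block. The differences between letters A and B correlated at -0.107 to 0.0327 between groups. With extra *AZF1*, 988 genes became 599 without the trend, 674 with the block and 0 to 527 with 1 library left out (limma, 978 or more at an unadjusted p under 0.05), and *ADR1* had an adjusted p of 0.0508 without the trend and 0.0509 with the block. *SIP4* stayed called there under the settings that kept all libraries, and, of those left out, without MoBY control B only. In MoBY control against WT, 1422 genes became 289 to 485 with 1 library left out and 1497 with the block. The gain and loss effects differed for 897 genes (482 higher, 415 lower), for 896 (612 higher, 284 lower) after rescaling, for 819 with the block and for 370 to 1138 with 1 library left out. For *HAP4* that difference was -0.80 (limma, adjusted p = 0.0502) without *AZF1* MoBY B. The sign of the log2 fold change turned with 1 library left out only for members that were not called. In *azf1Δ* against WT, *HAP5* ranged from -0.15 to 0.44 and *SIP4* from -0.034 to 0.41. With extra *AZF1*, *HAP3* ranged from -0.019 to 0.47 and *HAP5* from -0.24 to 0.069. In MoBY control against WT, *HAP5* ranged from -0.48 to 0.11 and *CAT8* from -0.058 to 0.013, and the difference of gain and loss for *HAP5* from -0.53 to 0.064. The cause of these changes was not tested. The low read numbers of *HAP2*, *HAP3* and *HAP5* limit what can be detected in them.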
